A study of Mus musculus with 2 samples.

Results

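The genes described here are 9 corticosteroid receptor, steroid enzyme and glucocorticoid-responsive genes: Nr3c1, Nr3c2, Hsd11b1, Sgk1, Tsc22d3, Fkbp5, Fkbp4, Errfi1 and Anxa1. They were chosen by name, and their probes were all non-control probes whose annotated RefSeq transcript belongs to one of them. This gave 11 probes in 20 spots, out of 39429 different non-control probes in 43020 spots, and 9 of the 20653 genes that could be named. Nr3c1 and Anxa1 had 2 probes each, and the other genes had 1.

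RNA came from monocytic myeloid-derived suppressor cells (M-MDSCs), immature suppressive cells of the monocyte lineage, which were isolated with magnetic beads from 4T1 tumours. 4T1 is a mammary carcinoma line, of which 1000000 cells had been injected under the skin of each female BABL/c mouse (the strain as the labels spell it; young adults, per the methods). Mice then received either the normal-salt diet (NSD; tap water and chow holding 0.4% NaCl) or the high-salt diet (HSD; drinking water that held 1% NaCl and chow with 4%) until day 16, and all mice of both groups had been starved before the injection and carried the tumour. Within a diet group equal numbers of isolated cells were mixed before RNA extraction, and each pool was hybridised to 1 single-colour (Cy3) Agilent array. With 1 array a diet, the spread between mice is unknown and no p-value can be given for any difference.

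Glucocorticoids and mineralocorticoids act through nuclear receptors that wait in the cytoplasm in a complex with heat shock proteins and immunophilins, enter the nucleus when the steroid binds, and activate or repress target genes. How much active glucocorticoid reaches the receptor in a cell also depends on enzymes that interconvert active and inert steroids. In monocytes and macrophages, glucocorticoids are known for damping inflammatory gene expression, and dietary salt is a classical regulator of aldosterone, the ligand of the mineralocorticoid receptor.

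Of the 9 genes, 2 had at least 1.5-fold higher signals in the HSD group, Hsd11b1 and Nr3c2, and 0 were lower by that much. That is 22.2% of the 9 genes in the upward direction, beside 9.86% of the 16312 genes with a usable probe, and 0 downward, beside 10.3%. With so few genes, nothing particular to them is read from these shares. The same 9.86% higher and 10.3% lower over all genes are the shares to set beside the counts of every list below. Signals are given in intensity units as extracted from the scans. Differences between the diets are given as log2 fold changes, positive where HSD is higher, after dividing each array by its 75th percentile, which was 252.2 units for NSD and 232.9 for HSD. That scaling adds 0.114 to every raw log2 difference, so Sgk1, Fkbp5 and the brighter Anxa1 probe have lower raw signals with HSD but log2 fold changes slightly above 0. The median log2 fold change was 0.069 over the 9 genes and 0.045 over all genes, and the median size regardless of direction was 0.23 and 0.28. The median of the 9 genes was slightly below 0 with quantile normalisation (−0.021), cyclic loess (−0.023) and the authors' log2 values (−0.021). The scanner software called all 11 probes well above background with both diets, and no spot was saturated.

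**Figure D1:**
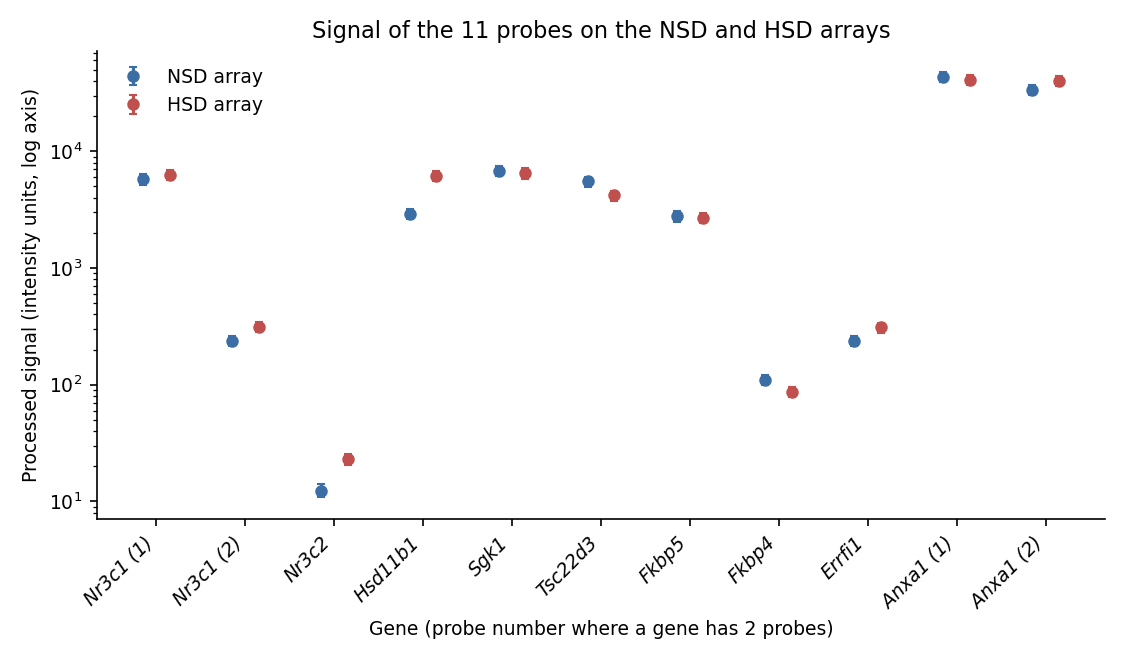
Processed signal (intensity units, log axis) of each of the 11 probes on the NSD array (blue) and the HSD array (red), with bars for the error that the scanner software gives to the signal. Hsd11b1, with 2914 and 6152 units, and Nr3c2, with 12.4 and 23.0 units, are the genes whose signals differ by more than 1.5-fold. Heights of different probes cannot be set against each other, since probes bind with different strength.

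Markers of the labelled cell type and of others were measured on the same arrays. All 7 monocyte markers matched were well above background on both. Of these, Ccr2 alone was at least 1.5-fold lower and none higher, and their summed signal was 106500 units with NSD and 98070 with HSD. Of 6 macrophage markers matched, 0 were higher and 3 lower, and the summed signal was 18320 and 12440 units. Mrc1 had 134.3 and 5.49 units, C1qc had 52.6 and 5.61 units, and C1qa had 12.2 and 4.01 units, the second not well above background, with normexp-corrected log2 fold changes of −1.56, −0.74 and −0.074. C1qb, for the other C1q chain, went the opposite way, with 50.4 and 58.4 units (log2 fold change 0.33). Most of the summed signal came from Adgre1 (6723 and 4252 units) and Csf1r (11340 and 8112 units), both less than 1.5-fold lower. Of 9 neutrophil markers matched, all were well above background on both arrays, 0 were higher and 1, Mpo, was lower, and the summed signal was 269500 and 255400 units. All 5 B cell markers were higher by less than 1.5-fold, with summed signals of 6131 and 7134 units. Carcinoma and fibroblast markers summed to 155.0 and 169.5 units with NSD and to 143.0 and 147.3 units with HSD, with 3 of 6 carcinoma markers higher, and 1 higher and 2 lower among 5 usable fibroblast markers. These were dim, and with the normexp correction none of the 6 reached 1.5-fold (Epcam 0.23, Krt8 0.17, Krt18 0.34, Pdgfrb 0.17, Col3a1 −0.051 and Dcn −0.032). Pdgfra and Lum were not well above background with either diet. Dendritic cell markers summed to 1011 and 1036 units (2 of 5 usable ones higher, Xcr1 not well above background), and T and NK cell markers to 3208 and 3643 units (1 of 7 usable ones lower, Ncr1 not well above background). Of the 2 higher dendritic cell markers, Itgax stayed past 1.5-fold with the normexp correction (0.65). Clec9a, with 6.93 and 11.1 units, did not (0.23). Endothelial markers summed to 497.9 and 513.9 units, with less than 1.5-fold for 3 of 5 and only bounds for Cdh5 and Tek, although the second probe of Kdr had a log2 fold change of −2.49. Erythroid markers summed to 11090 and 11430 units, with 1 of 4 usable ones, Hbb-bs, lower. Its log2 fold change was −0.66, or −0.47 with the normexp correction, below 1.5-fold. These sums are unscaled. After scaling, the HSD sum over the NSD sum was 0.735 for macrophage, 0.997 for monocyte, 1.03 for neutrophil, 0.999 for carcinoma and 0.940 for fibroblast markers. It was 1.26 for B cell, 1.23 for T and NK cell, 1.12 for endothelial, 1.11 for dendritic cell and 1.11 for erythroid markers. Whether these differences have a part in the values of Hsd11b1, Mertk or any other gene was not tested. In pooled bulk RNA, fewer cells of a type and less RNA per cell cannot be told apart.

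Hsd11b1 encodes 11β-hydroxysteroid dehydrogenase type 1, the enzyme of the endoplasmic reticulum that turns inert 11-dehydrocorticosterone back into active corticosterone. Its probe was printed in 10 spots per array. On the NSD array these spots lay between 2772 and 3028 units with a median of 2921, and on the HSD array between 5905 and 6632 units with a median of 6162. Every spot of the HSD array was brighter than every spot of the NSD array. Of the 10 spots, 2 were flagged as outliers on each array and left out, and the 8 others had a mean of 2915 ± 73.3 (SD between spots) with NSD and 6152 ± 82.6 with HSD. The log2 fold change was 1.19, a 2.28-fold higher signal after scaling, and 1.79% of all genes had a larger one. Taken spot by spot, the log2 fold change ran from 1.17 to 1.28 over all 10 positions, which were spread over rows 67 to 412 of the array. It was between 1.09 and 1.20 under the other background correction, scalings and spot choices, and 1.11 in the authors' log2 values. These spots repeat the measurement of 1 pool of RNA per diet, so their spread covers the array and not the mice.

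**Figure D2:**
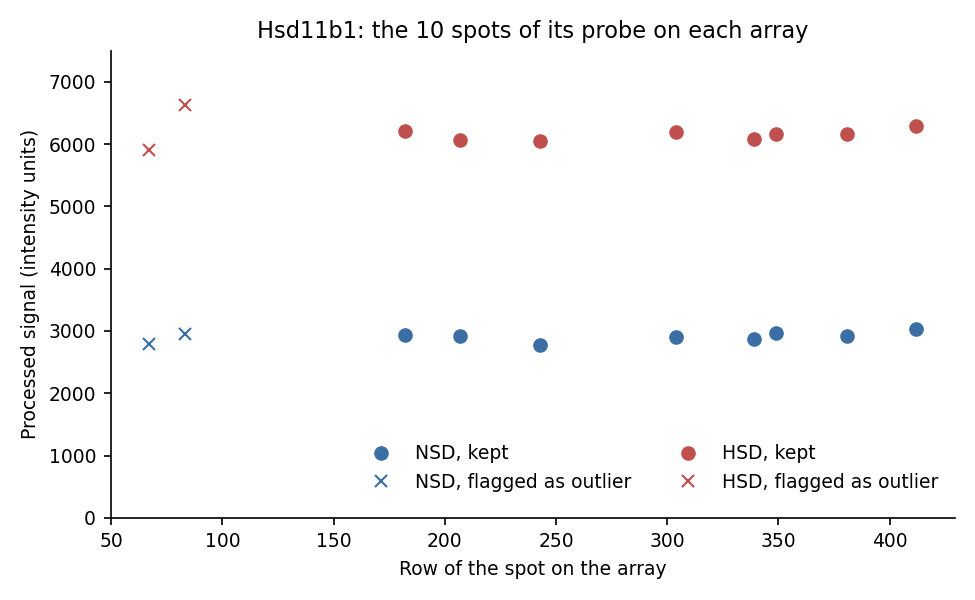
Processed signal (intensity units) of the 10 spots of the Hsd11b1 probe on each array against the row of the spot, with NSD in blue, HSD in red and crosses for spots flagged as outliers. HSD spots lie between 5905 and 6632 units and NSD spots between 2772 and 3028 units at all rows.

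The partner and opponent of this enzyme were on the list of steroid enzymes and are named after their values had been seen. H6pd, which supplies 11β-hydroxysteroid dehydrogenase type 1 with reduced cofactor inside the endoplasmic reticulum, had signals of 1735 units with NSD and 2278 with HSD, a log2 fold change of 0.51, below 1.5-fold. Hsd11b2, which inactivates corticosterone in aldosterone target cells, had signals of 1.98 and 2.67 units, not well above background with either diet. Of the 14 listed steroid enzymes and carriers, 9 had a usable probe, of which 1 was higher and 1 lower by at least 1.5-fold, with a median of 0.084. Srd5a1, the steroid 5α-reductase that also breaks down glucocorticoids, had signals of 10.1 and 15.6 units (log2 fold change 0.75, or 0.20 with the normexp background correction and an offset of 50, which is given as normexp from here on). Abcb1a, a drug efflux pump that also exports steroids, had signals of 130.8 and 41.2 units (log2 fold change −1.55, normexp −0.54). Among the steroid-synthesising enzymes, Cyp11b1, Cyp11b2 and Hsd3b1 were not well above background with either diet. Cyp11a1, Cyp17a1 and Cyp21a1 were with both, but dim and below 1.5-fold. Cyp11a1 had 11.7 and 9.20 units (log2 fold change −0.24, normexp 0.041). Cyp17a1 had 53.9 and 39.3 units (−0.34, normexp −0.13), and Cyp21a1 had 49.2 and 53.1 units (0.23, normexp 0.13).

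Nr3c1, the glucocorticoid receptor, was measured by 2 probes that point the same way. The brighter one had signals of 5765 units with NSD and 6250 with HSD, a log2 fold change of 0.23, and 31.2% of all genes had a larger one. The dimmer one had signals of 237.7 and 314.1 units, a log2 fold change of 0.52. Neither reached 1.5-fold, the brighter probe lay between 0.12 and 0.27 under the other settings and the dimmer one between 0.47 and 0.54. Both probes carry the same transcript identifier, and since the scanner output holds no probe sequences, they were not assigned to exons or receptor isoforms.

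Nr3c2 encodes the mineralocorticoid receptor, which binds both aldosterone and corticosterone. It had 1 probe in a single spot, which gave 12.4 ± 1.59 units with NSD and 23.0 ± 2.49 with HSD, where the error is the one given by the scanner software. The log2 fold change was 1.01, and 2.58% of all genes had a larger one. Scaling left it between 0.94 and 1.01. With the normexp correction, whose offset pulls together the values of dim spots, it was 0.26, below 1.5-fold. The probe lies near the dim end of the measured range. Probes were grouped by their mean signal over both arrays. Nr3c2 falls in the group from 16.6 to 49.1 units, although its NSD signal lies below that range. Among probes of this group printed in several spots, 2.76% of the pairs of spots on the same array differed by 1.5-fold or more. The share was 14.4% in the dimmest group, from 4.71 to 16.6 units. It was 0.571% in the brightest group, where Hsd11b1 lies. Of all probes measured on both arrays, some differed by at least 1.5-fold between the diets. These were 19.7% in the dimmest group, 17.5% in the group of Nr3c2 and 12.4% in the brightest.

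Other steroid receptors were also listed, and the median over the 3 with a usable probe was 0.023. Esr1, the oestrogen receptor α, had signals of 33.6 and 14.2 units (log2 fold change −1.13, normexp −0.25), and another usable probe of this gene had a log2 fold change of −0.066.

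**Figure D3:**
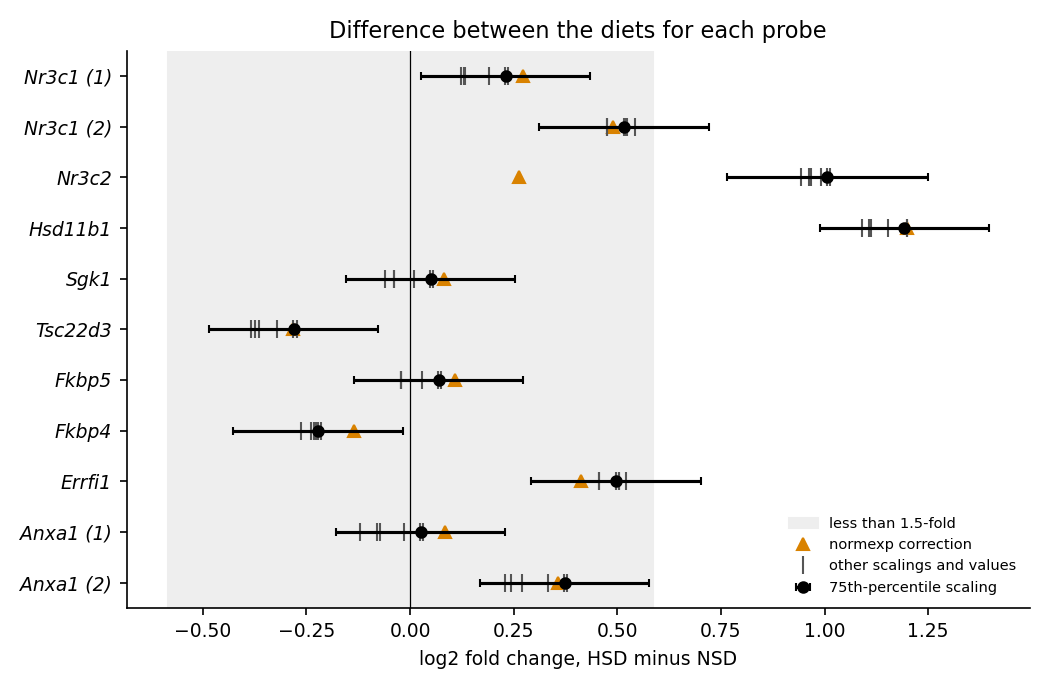
Log2 fold change (HSD minus NSD) of each probe with 75th-percentile scaling (black points, bars for the software's error of both signals), with the normexp background correction (orange triangles) and with the other scalings and the authors' values (grey ticks). Hsd11b1 stays between 1.09 and 1.20 throughout, Nr3c2 drops to 0.26 with the normexp correction, and the brighter Anxa1 probe, Sgk1 and Fkbp5 lie on both sides of 0.

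The immunophilins of the receptor complex showed small differences. Fkbp5 encodes FKBP51, which lowers the affinity of the receptor for hormone and is itself among the genes most readily induced by glucocorticoids. Its signal was 2777 units with NSD and 2692 with HSD, a log2 fold change of 0.069, which turned to −0.021 with quantile normalisation, −0.023 with cyclic loess and −0.021 in the authors' values. Fkbp4 encodes FKBP52, which takes the place of FKBP51 when the receptor moves to the nucleus. Its signal was 110.5 units with NSD and 87.5 with HSD, a log2 fold change of −0.22, and it was between −0.26 and −0.13 under the other settings. Both genes had 1 probe in a single spot, and the software's error of a log2 fold change was 0.20 for Fkbp5 and 0.21 for Fkbp4. That error is assigned by the software and is not a measured spread. Among probes printed in several spots, the median SD between spots at like signal was 0.060 for Fkbp5 and 0.083 for Fkbp4 (log2).

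Of 11 other genes of the FKBP family, 0 were higher and 2 lower by at least 1.5-fold, with a median of −0.046. Fkbp1a, the binding protein of the drug FK506, had signals of 1360 and 801.9 units (log2 fold change −0.65), and its second probe had a log2 fold change of −0.034. Fkbp9 had 11.8 units with NSD and 3.86 with HSD, where it was not well above background. It was at least 2.47-fold lower, with −0.082 on the log2 scale under the normexp correction.

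Of 11 chaperones and cochaperones of the receptor, all with a usable probe, 0 were higher and 1 was lower by at least 1.5-fold, and the median was 0.15. Ppp5c, the phosphatase that shares the binding site of the immunophilins on HSP90, had signals of 358.4 and 195.3 units, a log2 fold change of −0.76. Of 11 coregulators, 2 were higher and none lower, with a median of 0.0058. Ncor1, a corepressor, had signals of 949.3 and 1546 units (log2 fold change 0.82), and its 2 other probes had 0.31 and 0.77. Ep300, a histone acetyltransferase and coactivator, had signals of 1246 and 1882 units (log2 fold change 0.71).

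Among the glucocorticoid-responsive genes, the classical direct targets Sgk1 and Tsc22d3 differed by less than 1.5-fold. Sgk1 encodes serum- and glucocorticoid-regulated kinase 1, which carries the effect of aldosterone to sodium channels and also responds to hypertonicity. Its signal was 6769 units with NSD and 6473 with HSD. The log2 fold change of 0.050 turned to −0.040 with quantile normalisation, −0.060 with cyclic loess and −0.039 in the authors' values. Tsc22d3 encodes GILZ, the glucocorticoid-induced leucine zipper protein that mediates part of the anti-inflammatory response. Its signal was 5508 units with NSD and 4190 with HSD, a log2 fold change of −0.28, or 1.21-fold lower. This was the lowest value among the 9 genes, and 23.2% of all genes had a lower one. The value was between −0.38 and −0.27 under every other setting and never reached 1.5-fold. Each of these genes was measured by 1 spot per array although each has several annotated transcripts. Each probe is annotated to 1 transcript of its gene, and whether it also binds the others was not examined.

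The regions before the starts of these genes are shown because Sgk1 and Tsc22d3 are textbook targets of the receptor that differed by less than 1.5-fold, while Hsd11b1 had the largest difference of the 9 genes. The sequences are the 250 bases before the start given by RefSeq on mouse assembly GRCm38.p6, read 5′ to 3′ on the strand of the gene, and 8 of the 9 genes had at least 1 such window. Capitals mark the half-site of the glucocorticoid response element, TGTTCT on either strand, and its palindrome, 2 such half-sites facing each other across 3 bases. Sgk1 and Tsc22d3 have several windows each, and the ones shown were picked for the letters they hold. The windows were not matched to the transcript that the probe of the gene is annotated to. No half-site lay in the other windows of Tsc22d3. Hsd11b1 has only the window shown, so the windows of these genes are not a like comparison.
Sgk1 (chr10:21993640-21993889, plus strand): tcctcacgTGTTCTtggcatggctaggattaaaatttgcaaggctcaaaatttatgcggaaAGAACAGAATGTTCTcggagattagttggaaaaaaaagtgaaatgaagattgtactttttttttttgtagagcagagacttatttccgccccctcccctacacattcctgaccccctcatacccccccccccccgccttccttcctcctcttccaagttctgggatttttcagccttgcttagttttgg
Tsc22d3 (chrX:140600523-140600772, minus strand): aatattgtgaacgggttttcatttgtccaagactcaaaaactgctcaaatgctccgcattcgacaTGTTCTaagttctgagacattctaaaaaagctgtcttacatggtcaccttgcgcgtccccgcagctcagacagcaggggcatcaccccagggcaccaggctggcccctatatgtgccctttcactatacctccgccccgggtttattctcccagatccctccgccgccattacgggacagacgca
Hsd11b1 (chr1:193242361-193242610, minus strand): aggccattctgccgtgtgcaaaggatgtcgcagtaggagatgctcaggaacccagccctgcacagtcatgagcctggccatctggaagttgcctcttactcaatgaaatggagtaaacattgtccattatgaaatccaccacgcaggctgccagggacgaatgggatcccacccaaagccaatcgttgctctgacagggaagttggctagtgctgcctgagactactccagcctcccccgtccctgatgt

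This window of Sgk1, 1 of 6 for the gene, held the full palindrome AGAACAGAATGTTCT from 189 to 175 bases before the start, and 3 of all 32851 windows (0.00913%) held a full palindrome with any 3 bases between the half-sites. Its half-sites overlap the palindrome, and a further half-site lay 242 to 237 bases before the start. The half-site alone was found in 16.1% of all windows. Among the 16 windows of the 8 genes it was found in 4, of which 3 belonged to Sgk1 and 1, the window shown, to Tsc22d3. The shorter core ACANNNTGT, which overlaps the palindrome, was found in 5.84% of all windows and in 2 of the 16, both of Sgk1. The Hsd11b1 window held none of these letters, and no match to TTGCNNAA on either strand, a form of the site of the C/EBP factors that are known to regulate this gene. That last motif was found in 9.56% of all windows and in 3 of the 16, 1 each of Nr3c2, Sgk1 and Anxa1. These are matches of letters in short windows and say nothing of binding in these cells.

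Errfi1 encodes MIG6, a glucocorticoid-induced inhibitor of the EGF receptor. Its signal was 237.5 units with NSD and 309.6 with HSD, a log2 fold change of 0.50 (1.41-fold), below 1.5-fold, and 13.5% of all genes had a larger one. It was between 0.41 and 0.52 under the other settings. Of 10 genes for EGF receptors and ligands, 6 had a usable probe, 3 of them only as a bound, and 0 were higher and 2 lower by at least 1.5-fold, with a median of 0.012. Egfr, the receptor that MIG6 inhibits, had 22.5 and 23.2 units at its brightest probe (log2 fold change 0.16), while another usable probe had a log2 fold change of 1.06. Egf had signals of 104.0 and 8.73 units (log2 fold change −3.46, normexp −1.26). Erbb3 had 8.54 units with NSD and 4.11 with HSD, where it was not well above background. It was at least 1.80-fold lower, with −0.091 on the log2 scale under the normexp correction.

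Anxa1 encodes annexin A1, a glucocorticoid-induced protein that restrains leukocyte recruitment through formyl peptide receptors. Its brighter probe had signals of 43380 units with NSD and 40800 with HSD, and its other probe 33710 and 40320. The log2 fold changes were 0.026 and 0.37. The brighter probe was below 0 with quantile normalisation (−0.079), cyclic loess (−0.12), the authors' values (−0.072) and the 75th percentile of detected probes (−0.015), whereas the other probe stayed between 0.23 and 0.38. These probes carry the same transcript identifier and neither was saturated, so the direction for Anxa1 depends on the probe and the scaling. Of 11 genes for other annexins, their S100 partners and formyl peptide receptors, 1 was higher and 1 lower by at least 1.5-fold, and the median was 0.28. Fpr2, the receptor of annexin A1, had signals of 21170 and 31280 units, a log2 fold change of 0.68 that was 0.58 in the authors' values, 0.57 with quantile normalisation and 0.54 with cyclic loess, all 3 below 1.5-fold. Anxa4 had signals of 3176 and 1427 units (log2 fold change −1.04).

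Other genes that glucocorticoids induce were widely scattered. Of 25 listed genes 24 had a usable probe, of which 7 were higher and 3 lower by at least 1.5-fold and 14 neither, with a median of 0.15. These counts are 29.2% and 12.5% of the usable genes, beside 9.86% and 10.3% of all genes. Pdk4, the kinase that shuts pyruvate dehydrogenase, had signals of 6.46 and 59.4 units, a log2 fold change of 3.31 (normexp 0.95). Angptl4, an inhibitor of lipoprotein lipase, had signals of 65.0 and 170.6 units (log2 fold change 1.51, normexp 0.99). Nfkbia, which encodes the NF-κB inhibitor IκBα, had a log2 fold change of 0.87. Whether glucocorticoids or other signals had a part in these or any other values of this list was not tested. In the other direction, Thbs1, which encodes the matrix protein thrombospondin 1, had signals of 600.2 and 79.7 units (log2 fold change −2.80). Mertk, a receptor for the uptake of apoptotic cells, had 95.9 and 15.4 units (log2 fold change −2.52, normexp −1.01), beside macrophage markers of which 3 of 6 were lower, and their part in this value was not tested. Il1r2, the decoy receptor of interleukin-1, had 892.1 and 488.5 units (log2 fold change −0.75). Further direct targets, chosen after their values were seen, had log2 fold changes of 0.19 (the clock gene Per1), −0.070 (the phosphatase gene Dusp1) and −0.27 (the transcription factor gene Zbtb16), all below 1.5-fold. Klf9, also a transcription factor gene, had 189.3 and 271.3 units and was past 1.5-fold (0.63, or 0.53 with the normexp correction). The other 3 genes of this list past 1.5-fold were Ddit4 (0.80), Mt2 (0.82) and Cdkn1a (0.85, normexp 0.53), all higher with HSD.

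Genes that glucocorticoids repress were also found on both sides. Of 18 listed genes 17 could be matched and 15 had a usable probe, of which 6 were higher and 5 lower by at least 1.5-fold, with a median of 0.39. Those counts are 40.0% and 33.3% of the usable genes, beside 9.86% and 10.3% of all genes. Higher in the HSD group were Nos2, the inducible nitric oxide synthase, with 22.8 and 184.5 units (log2 fold change 3.13, normexp 1.60), and the neutrophil-attracting chemokines Cxcl2 (log2 fold change 2.02) and Cxcl1 (1.88, or 1.03 with the normexp correction). Lower were the monocyte-attracting chemokines Ccl2 (log2 fold change −2.36) and Ccl7 (at least 10.3-fold, as it was not well above background with HSD), and Ccl5 (log2 fold change −1.49). For Ccl7 the normexp value was −0.72. Tnf, the gene of the inflammatory cytokine TNF-α, had 688.0 and 1299 units (log2 fold change 1.03). Nos2, Tnf and Ccl2 are among the genes that the study itself reports on in M-MDSCs of these diets, so this list is no independent evidence of a direction.

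**Figure D4:**
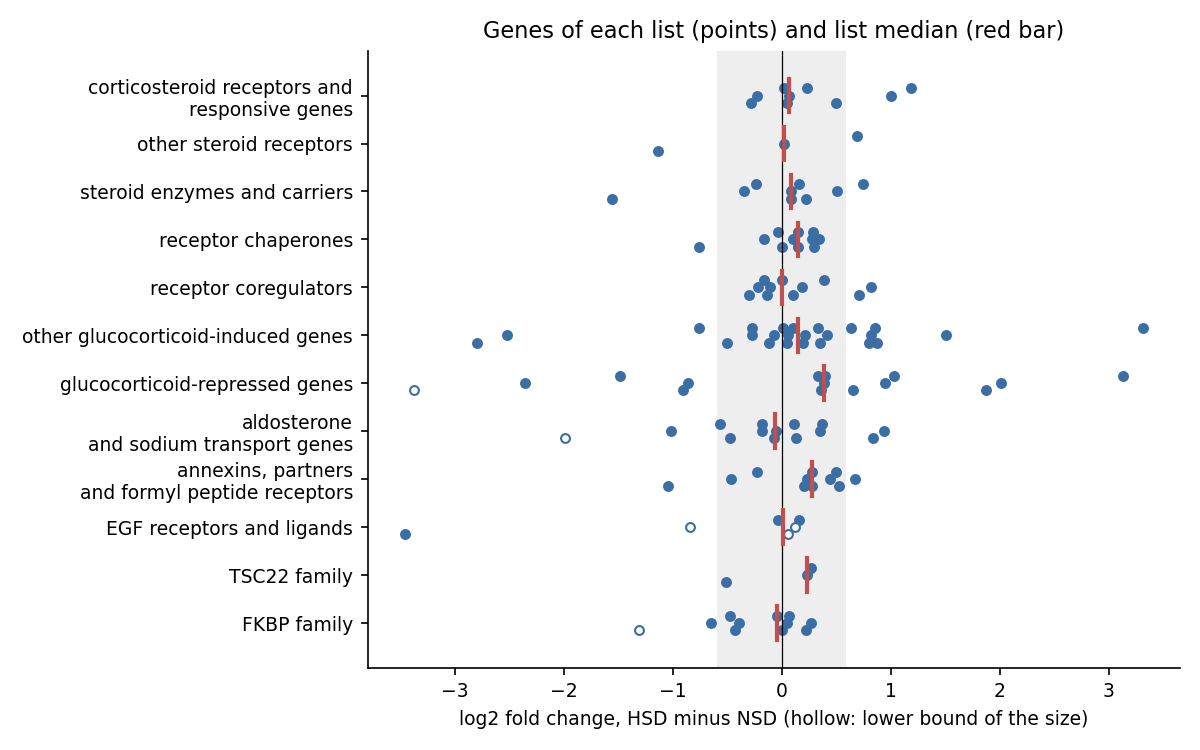
Log2 fold change (HSD minus NSD) of every usable gene of the 9 members and of 11 lists of related genes, with filled points for genes measured on both arrays, hollow points for lower bounds, red bars for list medians and grey shading for less than 1.5-fold. The list medians lie between −0.062 and 0.39, and the induced and the repressed lists both reach beyond −2 and beyond 3.

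In the aldosterone pathway and sodium transport, 14 of 18 listed genes had a usable probe, with 2 higher and 2 lower by at least 1.5-fold and a median of −0.062. Scnn1a, the α subunit of the epithelial sodium channel, had signals of 1654 and 2725 units (log2 fold change 0.83), while the other subunits, Scnn1b and Scnn1g, were not well above background with either diet. Nedd4, a ubiquitin ligase of the family that SGK1 restrains, had signals of 525.0 and 927.9 units (log2 fold change 0.94). Nedd4l, of the same family and named after its values were seen, had 649.5 and 579.0 units (log2 fold change −0.051). Its second probe had a log2 fold change of 0.13. Sgk2, a relative of Sgk1, had 27.6 and 12.7 units (log2 fold change −1.01, normexp −0.27). Kcnj1, a potassium channel of the kidney, was not well above background with HSD, which gives a bound of at least 3.96-fold lower, or −0.32 on the log2 scale under the normexp correction. The 3 relatives of Tsc22d3 in the TSC22 family differed by less than 1.5-fold at their brightest probe, with a median of 0.24, but the other probes of Tsc22d4 ranged from −0.089 to 1.49.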

How the data were processed

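Total RNA of pooled tumour M-MDSCs was hybridised to Agilent Mouse GE v2 arrays, 1 for the NSD and 1 for the HSD group. Scanner output of both was deposited, and its processed signal and error are intensity values after background correction in Feature Extraction 11.0.1.1. The spot and local background medians in the deposited scanner output, also intensity, served the normexp alternative alone. A deposited table holds the authors' normalized log2 values, made with GeneSpring by a method not given in the sources used here. Its columns differ by at most 0.0519 once sorted, and every column in it was mapped.

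Control spots and outlier spots (162 and 179 non-control spots with NSD and HSD) were dropped. Signals were log2-transformed, averaged over the spots of a probe and centred on the array's 75th percentile, leaving 39413 probes. A probe counted as well above background where at least 50% of its spots did. If it did so on 1 array only, the fold is a bound, computed against its own dim signal or the array's detection floor (4.61 units for NSD, 4.39 for HSD), whichever was higher. If on neither, no fold is given. The brightest probe stood for a gene. RefSeq transcript identifiers (GRCm38.p6) named 27223 probes (69.1%), and probe coordinates are left out because the array's own annotation uses an earlier assembly.

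A gene was counted at 1.5-fold, with no test. The 9 members, 11 gene lists and 10 marker lists were chosen with earlier results of these data known. Named are all members and, per list, up to 3 genes with the largest difference past 1.5-fold in each direction, with additions marked and some results not reported here. Cd68, Ly6c2, Ly6g, Ccl3 and Atp1b3 were not matched and are not analysed here. Counting was tested on simulated data. Well above background were 71.9% of probes with NSD and 72.4% with HSD, and having 1 array a diet limits precision. Alternatives, changed 1 at a time, were normexp (offset 50), 4 other scalings (quantile, median, 75th percentile of detected probes, cyclic loess), the authors' values, outlier spots kept, a stricter background filter or none, 2-fold, and the median over probes. Software was Python 3.11.15 (numpy 2.4.6, pandas 2.3.3, matplotlib 3.10.9) and limma 3.58.1 in R 4.3.3.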

Additional observations from a re-analysis of the deposited data

How the results depend on the processing

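Across the 11 alternatives, 2 of the 9 genes were at least 1.5-fold higher and 0 lower, except with the normexp correction, where 1 gene, Hsd11b1, was higher and Nr3c2 had a log2 fold change of 0.26. The offset of that correction compresses dim signals by construction. The median of the 9 genes lay between −0.023 and 0.11, or was 0.20 when probes of each gene were summarised by their median, which changes the values of Nr3c1 and Anxa1. Of 90 values of the members under the alternatives 72 moved by less than the noise between single spots at like signal and 18 by more, and none of the genes past 1.5-fold changed sign. Over the 11 lists together, 20 genes were higher and 18 lower. The first count was 6 at 2-fold, 15 with the normexp correction and 27 without a filter on dim probes. The second was 12, 11 and 18 under the same settings. Over all genes, 1608 were higher and 1682 lower, against 619 and 655 with the normexp correction, 428 and 681 at 2-fold, and 2903 and 2212 without a filter on dim probes. Upward calls were 48.9% of all calls under the main scaling but 38.5% under cyclic loess (1244 higher, 1991 lower). No paired analysis was possible because each diet has 1 array, and for the same reason no array could be left out. Both arrays lay on the same slide. Differences of dim probes such as Nr3c2 are limited by the signal over background.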
